A study of Mus musculus with 12 samples.

Results

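Transcripts of 44 genes of the cell cycle and of DNA replication were measured in mouse gingiva, the gum tissue around the teeth. The tissue came from naive mice or from mice with a ligature tied around a molar. The 44 were chosen by gene name, from a list drawn up with earlier comparisons of these same libraries in view. Counts over the list are therefore descriptions and carry no test of their own. They are 44 of the 21965 genes in the count table, and all 44 were among the 15046 genes tested. By their known roles, 26 act in the licensing and copying of DNA and in the control of S phase, and 18 act in mitosis. All 44 are annotated as protein coding.

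WT mice were C57BL/6 wildtype animals, and CybbKO mice carried the genotype Cybb-/-, a disruption of the gene for the catalytic subunit of the phagocyte oxidase Nox2. Gingiva was taken from naive mice or 8 days after a silk ligature was placed at a maxillary molar, from animals under 12 weeks old according to the labels. Each of the 4 groups (naive WT, ligated WT, naive CybbKO and ligated CybbKO) had 3 libraries, and 3 mice matched for age and sex were used per group. No unligated site of the same mice was sequenced here. Between 27958819 and 42613423 reads were counted per library, and the members had from 57 to 8112 counts in a library. Values are CPM, counts scaled to the same library total after TMM, a correction for library composition.

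Cybb, the targeted gene, had 5.60, 5.38 and 4.19 CPM in naive WT, 8.41, 15.2 and 12.8 in ligated WT, 41.6, 56.3 and 45.9 in naive CybbKO and 56.1, 51.1 and 63.7 in ligated CybbKO libraries. The libraries labelled CybbKO thus all exceeded the WT ones, against the direction of a lost transcript, and counts summed over all exons cannot tell whether the disrupted stretch was made. CybbKO below means the libraries labelled so. The naive WT library of replicate 3 stood apart. The summed level of salivary and mucous gland markers was 29183 CPM there and 63.0 to 5053 CPM in the other 11 libraries, and all 26 replication members had their lowest naive WT value in it. The main counts, medians and calls that it changed are also given without it.

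A dividing cell first loads the MCM helicase onto replication origins (licensing), then copies its DNA in S phase, and later condenses, aligns and separates the chromosomes in mitosis. The genes for licensing and DNA synthesis are largely switched on by E2F transcription factors as a cell leaves G1. Those for mitosis come on later, through MuvB complexes with B-Myb and FoxM1 that bind a promoter element called the CHR, often beside CCAAT boxes. Oral epithelium renews itself from a basal layer of dividing keratinocytes, so cell cycle transcripts are present in healthy gingiva.

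After the ligature, 16 of 18 mitotic transcripts rose while licensing transcripts fell or did not pass the test, in both genotypes. In WT, 17 members rose and 2 fell in ligated against naive gingiva. In CybbKO, 17 rose and 7 fell. Members were called where edgeR's quasi-likelihood test gave an adjusted p under 0.05, adjusted over all tested genes. Over all 15046 genes the same test called 2.31% higher and 0.884% lower in WT, and 9.95% higher and 3.04% lower in CybbKO. The 17 that rose were the same genes in both genotypes, namely 16 of the 18 mitotic members and Ccna2. All that fell act in licensing, except E2f1. In total, 19 members were called in both genotypes, 5 in CybbKO alone and 20 in neither, which does not show that the genotypes differ. Without naive WT replicate 3, 26 were called in both, 1 in WT alone, 4 in CybbKO alone and 13 in neither, and with each of the other 11 libraries left out in turn 6 to 19 were called in both, fewest without naive WT replicate 2. The map of the members by library shows the mitotic genes and Ccna2 apart from the licensing genes.

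**Figure D1:**
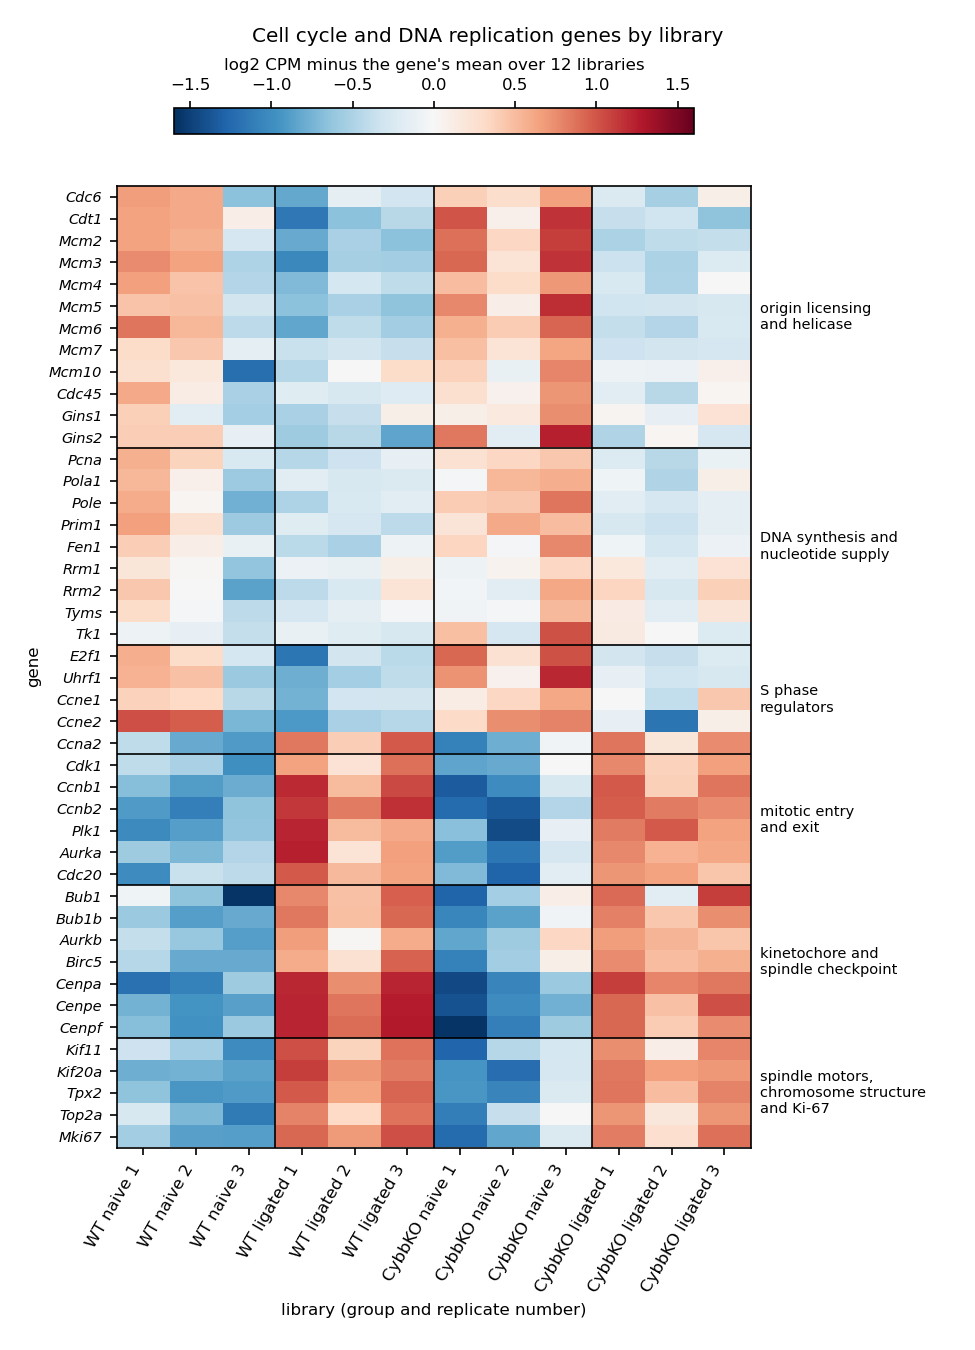
Levels of the 44 members in the 12 libraries. Rows are genes grouped by role, columns are libraries, and colour gives log2 CPM minus the mean of that gene over the 12 libraries, on a scale that runs to 1.6 either side. Of the 108 cells of mitotic genes in ligated columns, 107 lie above the gene's mean (red), the exception being Bub1 in ligated CybbKO replicate 2, and so do 57 of the 60 cells of licensing genes in naive columns other than naive WT replicate 3.

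Naive and ligated libraries did not overlap for nearly all mitotic members and for fewer replication members. In WT, 19 members were higher in every ligated than in every naive library, which held for 13.3% of all tested genes, and 7 were lower throughout, which held for 11.6%. In CybbKO, 18 were higher throughout (18.5% of all tested genes) and 16 were lower throughout (12.8%). Without naive WT replicate 3, 20 members were lower throughout in WT, beside 22.7% of all tested genes, and 19 were higher throughout, beside 22.7%. With any other WT library left out, 7 to 9 of the 44 were lower throughout, beside 13.8% to 19.8% of all tested genes. The lower count in WT thus lay near the share of all genes, except without naive WT replicate 3. All 18 mitotic members were higher throughout in WT and 17 of 18 in CybbKO, the exception being Bub1. None of the 44 members was separated in opposite directions in the 2 genotypes.

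Promoters of 3 licensing and 3 mitotic members are printed for their motifs, since every licensing member called was lower and every mitotic member called was higher after the ligature. The stretches are the 200 bases before the RefSeq start of each gene on GRCm38.p6, read 5′ to 3′ on the gene's own strand. Capitals mark an E2F motif (TTTNNCGC, where each N is C or G), a CHR (TTTGAA or TTCGAA) or a CCAAT box (CCAAT), each searched on both strands. Of the licensing genes, Mcm6 (chr1:128359706-128359905, minus strand) and Mcm5 (chr8:75109309-75109508, plus strand) each hold an E2F motif that overlaps another on the opposite strand. Mcm6 holds a further E2F motif that overlaps no other. Mcm2 (chr6:88898781-88898980, minus strand) holds no E2F motif but 1 CHR and 1 CCAAT match in this stretch.
Mcm6: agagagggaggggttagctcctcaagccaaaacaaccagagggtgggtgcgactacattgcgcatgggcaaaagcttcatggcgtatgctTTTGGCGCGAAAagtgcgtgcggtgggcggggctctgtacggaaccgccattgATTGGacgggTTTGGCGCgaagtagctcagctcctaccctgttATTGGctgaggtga
Mcm5: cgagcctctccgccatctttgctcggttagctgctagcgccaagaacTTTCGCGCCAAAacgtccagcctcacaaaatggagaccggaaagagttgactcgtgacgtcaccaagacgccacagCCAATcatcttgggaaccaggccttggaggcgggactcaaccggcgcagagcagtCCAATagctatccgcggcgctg
Mcm2: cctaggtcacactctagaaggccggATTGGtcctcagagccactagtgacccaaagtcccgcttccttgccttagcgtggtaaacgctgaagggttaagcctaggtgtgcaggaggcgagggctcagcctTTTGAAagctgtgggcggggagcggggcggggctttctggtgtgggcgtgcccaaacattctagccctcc
Of the mitotic genes, Cdc20 (chr4:118437344-118437543, minus strand) has a CHR between CCAAT boxes, and Top2a (chr11:99024190-99024389, minus strand) has 4 CHR and 5 CCAAT matches. Cdk1 (chr10:69352913-69353112, minus strand) holds motifs of both kinds, with 1 E2F, 2 CHR and 2 CCAAT matches.
Cdc20: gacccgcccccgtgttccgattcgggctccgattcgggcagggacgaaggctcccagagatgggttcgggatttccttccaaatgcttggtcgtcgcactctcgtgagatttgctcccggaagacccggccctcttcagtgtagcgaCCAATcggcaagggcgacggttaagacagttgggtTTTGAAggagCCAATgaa
Top2a: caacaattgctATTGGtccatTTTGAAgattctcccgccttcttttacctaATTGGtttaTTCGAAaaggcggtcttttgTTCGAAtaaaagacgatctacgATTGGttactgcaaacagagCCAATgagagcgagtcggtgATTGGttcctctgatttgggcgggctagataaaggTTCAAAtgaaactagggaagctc
Cdk1: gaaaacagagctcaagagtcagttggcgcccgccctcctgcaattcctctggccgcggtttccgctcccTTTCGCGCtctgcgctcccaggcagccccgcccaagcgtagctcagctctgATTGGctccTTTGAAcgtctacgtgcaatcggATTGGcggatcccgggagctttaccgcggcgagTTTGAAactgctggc
Promoters of 300 bases, 250 before and 50 after the start, were matched for 35 of the 44 members. An E2F motif stood in 8 of the 20 replication members with a promoter (40.0%) and in 1 of 15 mitotic members (6.67%), against 2.6% of all 27025 genes with a promoter. A CHR stood in 4 of 20 replication members (20%) and in 12 of 15 mitotic members (80.0%), against 21.7% of all genes. CCAAT boxes were found in 13 of 20 (65.0%) and 14 of 15 (93.3%), against 41.1%. Among the licensing members alone, 6 of 9 held the E2F motif. A match is a description of the letters in this window and not evidence that a factor binds there.

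The replicative helicase is the ring of Mcm2 to Mcm7, which Cdc6 and Cdt1 load onto origins and Cdc45 and the GINS subunits activate. Mcm6 (ENSMUSG00000026355, chromosome 1, 128331590 to 128359664, minus strand) had 94.5, 75.4 and 38.8 CPM in naive WT, 29.1, 39.4 and 35.3 in ligated WT, 77, 69.1 and 99.4 in naive CybbKO and 40.0, 37.7 and 43.8 in ligated CybbKO libraries. Apart from naive WT replicate 3, every naive library lay well above every ligated one. Changes are given on the log2 scale with their standard error (SE). Its log2 fold change was -1.01 (SE 0.26, adjusted p = 0.0623) in WT, which missed the threshold, and -1.01 (SE 0.26, adjusted p = 0.0276) in CybbKO, where it fell. Mcm2 (ENSMUSG00000002870, chromosome 6, 88883474 to 88898780, minus strand) had 32.9, 31.1 and 17.4 CPM in naive WT, 12, 14.7 and 13.3 in ligated WT, 38.6, 26.5 and 45 in naive CybbKO and 14.8, 15.9 and 16.2 in ligated CybbKO libraries. It fell in both genotypes, at a log2 fold change of -1.02 (SE 0.24, adjusted p = 0.0439) in WT and -1.23 (SE 0.24, adjusted p = 0.00732) in CybbKO.

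Mcm3 had 41.1, 38.2 and 17.4 CPM in naive WT, 11.9, 17 and 16.6 in ligated WT, 46.2, 28.5 and 54.3 in naive CybbKO and 19.2, 17.3 and 21 in ligated CybbKO libraries. Mcm5 had 35.8, 36.3 and 21.3 CPM in naive WT, 16.6, 18.2 and 16.8 in ligated WT, 44.3, 28.2 and 59.5 in naive CybbKO and 21, 21.3 and 21.8 in ligated CybbKO libraries. For both genes no ligated library reached the lowest naive one of its genotype, although the gap in WT was small at Mcm3, 17.4 against 17.0 CPM. In CybbKO they fell, with log2 fold changes of -1.17 (SE 0.31, adjusted p = 0.0290) and -1.04 (SE 0.25, adjusted p = 0.0194), and in WT they did not pass the test, at -1.09 (SE 0.31, adjusted p = 0.0774) and -0.86 (SE 0.25, adjusted p = 0.0851). Mcm7, whose exons overlap the small RNA genes Mir25 and Mir93 on the same strand, had 46.4, 51.0 and 33.9 CPM in naive WT, 29.4, 30.8 and 29.1 in ligated WT, 52.6, 43.8 and 58.7 in naive CybbKO and 30.1, 30.9 and 31.2 in ligated CybbKO libraries. It fell in CybbKO, where the log2 fold change was -0.75 (SE 0.15, adjusted p = 0.00946), and was at -0.56 (SE 0.15, adjusted p = 0.0730) in WT. Mcm4 passed in neither genotype, at -0.75 (SE 0.25, adjusted p = 0.121) in WT and -0.73 (SE 0.25, adjusted p = 0.0752) in CybbKO, although every ligated CybbKO library was below every naive one.

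Among the loaders, Cdt1 had 9.11, 8.89 and 6.27 CPM in naive WT, 2.64, 3.69 and 4.28 in ligated WT, 11.7, 6.16 and 13 in naive CybbKO and 4.52, 4.68 and 3.72 in ligated CybbKO libraries. It fell in both genotypes, with log2 fold changes of -1.19 (SE 0.29, adjusted p = 0.0497) in WT, close to the threshold, and -1.26 (SE 0.29, adjusted p = 0.0161) in CybbKO. Cdc6 had 9.08, 8.63 and 3.61 CPM in naive WT, 3.24, 5.13 and 4.62 in ligated WT, 7.39, 6.91 and 8.97 in naive CybbKO and 4.86, 3.93 and 6.05 in ligated CybbKO libraries, and passed in neither genotype, with log2 fold changes of -0.72 (SE 0.32, adjusted p = 0.244) in WT and -0.65 (SE 0.32, adjusted p = 0.218) in CybbKO. Gins2, a GINS subunit, was at -0.85 (SE 0.32, adjusted p = 0.167) in WT and -0.98 (SE 0.32, adjusted p = 0.0665) in CybbKO. Cdc45, Gins1 and Mcm10, which act when the loaded helicase is started, also did not pass the test, and their levels ran from 2.08 to 10.9 CPM over the 12 libraries.

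Over the 12 licensing and helicase members, 2 fell in WT and 6 in CybbKO, and none rose in either. The median log2 fold change was -0.80 in WT and -0.86 in CybbKO, beside -0.03 and -0.03 over all tested genes. Their summed level was 364, 330.5 and 183 CPM in naive WT, 147, 181 and 171 in ligated WT, 365, 282 and 445 in naive CybbKO and 189, 180.0 and 207 in ligated CybbKO. The ligated libraries were close to each other, and the naive ones spread widely. How many members fell depended on single libraries. Without naive WT replicate 3, 12 of the 44 members fell in WT and 13 in CybbKO. With every WT library left out in turn except that one, 0 fell in WT. The count in WT was also 0 in fits that left out CybbKO ligated replicate 1 or 3 or CybbKO naive replicate 1 or 3, all groups sharing 1 estimate of the spread. In CybbKO, 2 fell without ligated replicate 1, ligated replicate 3, naive replicate 1 or naive replicate 3, and 4 without ligated replicate 2. DESeq2 called 9 lower in WT and 13 in CybbKO, beside 3.29% and 5.83% of the genes it tested.

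In WT without naive WT replicate 3, 8 of the 12 licensing members fell, with a median log2 fold change of -1.02, and 2.06% of all 15185 genes tested then were called lower. Mcm6 was at -1.30 (SE 0.18, adjusted p = 0.0104), Mcm3 at -1.39 (SE 0.24, adjusted p = 0.0179), Mcm5 at -1.07 (SE 0.23, adjusted p = 0.0293) and Cdc6 at -1.03 (SE 0.24, adjusted p = 0.0384). Pcna at -0.77, Prim1 at -0.76, Ccne2 at -1.61 and Uhrf1 at -1.09 were also called lower. Of the mitotic members 14 of 18 rose, and Kif11 (adjusted p = 0.0502 from edgeR) and Top2a (0.0576) were no longer called.

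Polymerases, primase and the enzymes that make nucleotides follow the helicase. Of the 9 members of this role, 0 passed edgeR's test in either genotype, while 2 in WT and 4 in CybbKO had an unadjusted p under 0.05, each lower in ligated tissue, and DESeq2 called 1 and 3 lower, beside 3.29% and 5.83% of the genes it tested. Over all tested genes, 8.66% in WT and 10.4% in CybbKO were lower at that unadjusted p, and 19.9% and 27.7% differed in either direction. Pcna, the sliding clamp of the polymerases, had 89.1, 76.8 and 51.0 CPM in naive WT, 43.8, 47.7 and 54.8 in ligated WT, 71.1, 75.6 and 80.8 in naive CybbKO and 51.8, 44.4 and 55.9 in ligated CybbKO libraries. Its log2 fold change was -0.57 (SE 0.18, adjusted p = 0.109) in WT and -0.58 (SE 0.18, adjusted p = 0.0565) in CybbKO. Reads of Pcna and of Tyms may be shared with pseudogenes annotated under their names. Prim1, the catalytic subunit of primase, had 51.1, 38.2 and 21.7 CPM in naive WT and 28.4, 26.8 and 24.2 in ligated WT libraries. It had 37.5, 49.1 and 45.4 CPM in naive CybbKO and 27.2, 25.5 and 29.4 in ligated CybbKO libraries, without overlap. Pola1, Pole and Fen1, which start, extend and tidy the new strands, also had lower means in ligated tissue of both genotypes without passing the test.

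For the nucleotide enzymes, naive and ligated libraries overlapped. Rrm2, the regulated subunit of ribonucleotide reductase, had 33.6, 25 and 13.8 CPM in naive WT, 18.7, 21.1 and 29 in ligated WT, 24.1, 22.2 and 38.3 in naive CybbKO and 31.6, 20.9 and 32.6 in ligated CybbKO libraries. Naive and ligated libraries were interleaved. Rrm1, its partner, ran from 44.9 to 87.0 CPM in naive and from 61.7 to 81.5 in ligated libraries. Tyms, which makes thymidylate, ran from 10.9 to 20.9 and from 12.1 to 16.9 CPM in the same order. Tk1, thymidine kinase, had 13.2, 12.8 and 10.7 CPM in naive WT, 12.8, 12.2 and 11.7 in ligated WT, 19.5, 11.6 and 28.4 in naive CybbKO and 15.5, 14 and 12 in ligated CybbKO libraries. In naive CybbKO, replicates 1 and 3 were above all other libraries. The intervals on these genes still allow a change in either direction, with standard errors on the log2 scale of 0.20 for Rrm1, 0.21 for Tyms, 0.26 for Tk1 and 0.32 for Rrm2 in WT.

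The regulators of S phase divided between the 2 sides. E2f1, the activator of the replication genes, had 7.71, 6.33 and 4.26 CPM in naive WT, 2.31, 4.21 and 3.84 in ligated WT, 9.76, 6.13 and 10.5 in naive CybbKO and 4.20, 4.01 and 4.43 in ligated CybbKO libraries. It fell in CybbKO, where the log2 fold change was -1.06 (SE 0.29, adjusted p = 0.0337), and was at -0.82 (SE 0.29, adjusted p = 0.144) in WT. Uhrf1, which carries DNA methylation over to new strands, followed with -0.80 (SE 0.31, adjusted p = 0.169) in WT and -0.97 (SE 0.30, adjusted p = 0.0574) in CybbKO, and passed in neither. Ccne2 and Ccne1, the E cyclins that drive entry into S phase, also passed in neither. Ccne2 had 20.8, 19.9 and 6.12 CPM in naive WT, 5.38, 7.14 and 7.42 in ligated WT, 12.6, 17.1 and 17.7 in naive CybbKO and 9.30, 4.52 and 10.9 in ligated CybbKO libraries. Ccna2, the cyclin A of S phase and early mitosis, moved with the mitotic genes. It had 29.4, 22.3 and 20.9 CPM in naive WT, 69.8, 51.2 and 77.3 in ligated WT, 18.5, 22.8 and 37.6 in naive CybbKO and 70.9, 44.8 and 66.2 in ligated CybbKO libraries, and rose with log2 fold changes of 1.45 (SE 0.27, adjusted p = 0.0227) in WT and 1.21 (SE 0.27, adjusted p = 0.0144) in CybbKO.

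Cdk1 is the kinase that starts mitosis, Ccnb1 and Ccnb2 are its B cyclins, Plk1 and Aurka drive centrosome and spindle maturation, and Cdc20 activates the ligase that ends mitosis. All 6 rose in both genotypes. Ccnb2 (ENSMUSG00000032218, chromosome 9, 70407692 to 70421547, minus strand) had 7.28, 6.39 and 8.78 CPM in naive WT, 29.9, 24.3 and 30.8 in ligated WT, 5.83, 5.38 and 9.88 in naive CybbKO and 26.7, 24.3 and 23.1 in ligated CybbKO libraries. Its 6 ligated libraries all had at least 23.1 CPM and its 6 naive libraries at most 9.88 CPM. The log2 fold changes were 1.92 (SE 0.23, adjusted p = 0.00491) in WT and 1.81 (SE 0.23, adjusted p = 0.00189) in CybbKO. Ccnb1 had 11.2, 9.58 and 10.3 CPM in naive WT, 40.8, 25.3 and 37.1 in ligated WT, 7.13, 8.91 and 15 in naive CybbKO and 35.2, 23.2 and 32.3 in ligated CybbKO libraries, a change of 3.32-fold in WT and 2.93-fold in CybbKO. Both B cyclins have an annotated pseudogene named after them, which may share reads.

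Cdk1 had 18.9, 17.5 and 12.8 CPM in naive WT, 39.3, 29.6 and 46.5 in ligated WT, 14, 14.4 and 25 in naive CybbKO and 43, 32.4 and 39.8 in ligated CybbKO libraries. It rose by log2 fold changes of 1.23 (SE 0.25, adjusted p = 0.0277) in WT and 1.11 (SE 0.25, adjusted p = 0.0146) in CybbKO. Naive CybbKO replicate 3 was the highest naive library here, and the highest of its group for all 18 mitotic members. Plk1 had 3.29, 3.64 and 4.30 CPM in naive WT, 15.6, 9.50 and 10.1 in ligated WT, 4.21, 2.47 and 6.10 in naive CybbKO and 11.9, 13.2 and 10.4 in ligated CybbKO libraries, and rose 3.14-fold and 2.78-fold. Aurka rose 2.55-fold in WT and 2.59-fold in CybbKO, from 3.52 to 6.53 CPM in naive to 9.13 to 18.6 in ligated libraries. Cdc20 (ENSMUSG00000006398, chromosome 4, 118432901 to 118437352, minus strand) had 12.1, 18.9 and 18.1 CPM in naive WT, 47.8, 34.8 and 37.8 in ligated WT, 14.9, 9.99 and 21.6 in naive CybbKO and 39.5, 37.8 and 32.9 in ligated CybbKO libraries, with log2 fold changes of 1.30 (SE 0.26, adjusted p = 0.0264) in WT and 1.25 (SE 0.26, adjusted p = 0.00975) in CybbKO.

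Of the 44 members, Cenpa and Cenpe of the kinetochore, which ties chromosomes to spindle fibres, had the largest log2 fold changes in both genotypes. Over the 7 kinetochore and checkpoint members, the median was 1.52 in WT, between those of the other mitotic roles. In CybbKO the median was 1.25, the lowest of the 3 mitotic roles. Cenpe, a kinetochore motor, had 9.08, 7.88 and 8.38 CPM in naive WT, 35.7, 27.6 and 36.4 in ligated WT, 5.83, 7.60 and 9.0 in naive CybbKO and 29, 21.2 and 31.3 in ligated CybbKO libraries. Its log2 fold changes were 1.98 (SE 0.20, adjusted p = 0.00243) in WT and 1.86 (SE 0.20, adjusted p = 0.00126) in CybbKO, and its adjusted p was the smallest of the 44 in each. Cenpa, the histone H3 variant that marks centromeres, had 8.38, 9.08 and 12.9 CPM in naive WT, 44.2, 32.1 and 44.6 in ligated WT, 7.04, 9.21 and 12.7 in naive CybbKO and 41.2, 32.9 and 34.4 in ligated CybbKO libraries, and rose 3.98-fold in WT and 3.75-fold in CybbKO. Cenpf, a large coat protein of the outer kinetochore, had 13.4, 11 and 14.2 CPM in naive WT, 49.96, 40.0 and 52.1 in ligated WT, 7.27, 10.1 and 14.6 in naive CybbKO and 40.8, 28.6 and 36.3 in ligated CybbKO libraries, and rose 3.68-fold and 3.31-fold.

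Bub1b, the checkpoint protein BubR1, rose by 1.52 (SE 0.24, adjusted p = 0.0122) in WT and 1.25 (SE 0.24, adjusted p = 0.00670) in CybbKO on the log2 scale. Birc5, or survivin, a partner of Aurora B, rose by 1.30 (SE 0.27, adjusted p = 0.0282) and 1.05 (SE 0.27, adjusted p = 0.0244). Aurkb and Bub1 were the mitotic members that did not pass the test. Aurkb, the Aurora B kinase, had 7.37, 6.36 and 5.25 CPM in naive WT, 15.3, 9.73 and 14.6 in ligated WT, 5.43, 6.52 and 12.1 in naive CybbKO and 15.3, 14 and 13.1 in ligated CybbKO libraries, with log2 fold changes of 1.06 (SE 0.29, adjusted p = 0.0676) in WT and 0.82 (SE 0.28, adjusted p = 0.0807) in CybbKO. Bub1 had 8.04, 5.41 and 2.84 CPM in naive WT, 14.3, 11.7 and 16.4 in ligated WT, 3.46, 5.80 and 9.09 in naive CybbKO and 15.8, 7.46 and 18.1 in ligated CybbKO libraries, with 1.38 (SE 0.43, adjusted p = 0.104) and 1.17 (SE 0.43, adjusted p = 0.0979), and the standard errors of Bub1 were the largest of all 44 members in both contrasts. DESeq2 called both genes higher in both genotypes, beside 5.64% of its genes in WT and 12% in CybbKO.

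Mki67, the Ki-67 antigen used in tissue sections to mark dividing cells, had 68.4, 55.1 and 54.6 CPM in naive WT, 189.8, 161 and 206 in ligated WT, 42.9, 56.8 and 85.7 in naive CybbKO and 178, 121 and 185 in ligated CybbKO libraries. Every ligated library had at least 121 CPM and no naive library more than 85.7. The log2 fold change was 1.64 (SE 0.24, adjusted p = 0.00870) in WT and 1.39 (SE 0.24, adjusted p = 0.00437) in CybbKO. Top2a, the topoisomerase that untangles sister chromosomes, had 63.3, 45.8 and 34.6 CPM in naive WT, 131, 94.3 and 138 in ligated WT, 35.0, 58.3 and 76.0 in naive CybbKO and 123, 86.0 and 124 in ligated CybbKO libraries, with log2 fold changes of 1.34 (SE 0.29, adjusted p = 0.0340) and 0.98 (SE 0.29, adjusted p = 0.0456). Its exons overlap a small gene, Gm23451, on the same strand. Kif20a, a motor of cell division, rose 3.22-fold in WT and 2.79-fold in CybbKO, Tpx2, an activator of Aurora A, 3.19-fold and 2.65-fold, and Kif11, the motor that pushes spindle poles apart, 2.61-fold and 2.27-fold.

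**Figure D2:**
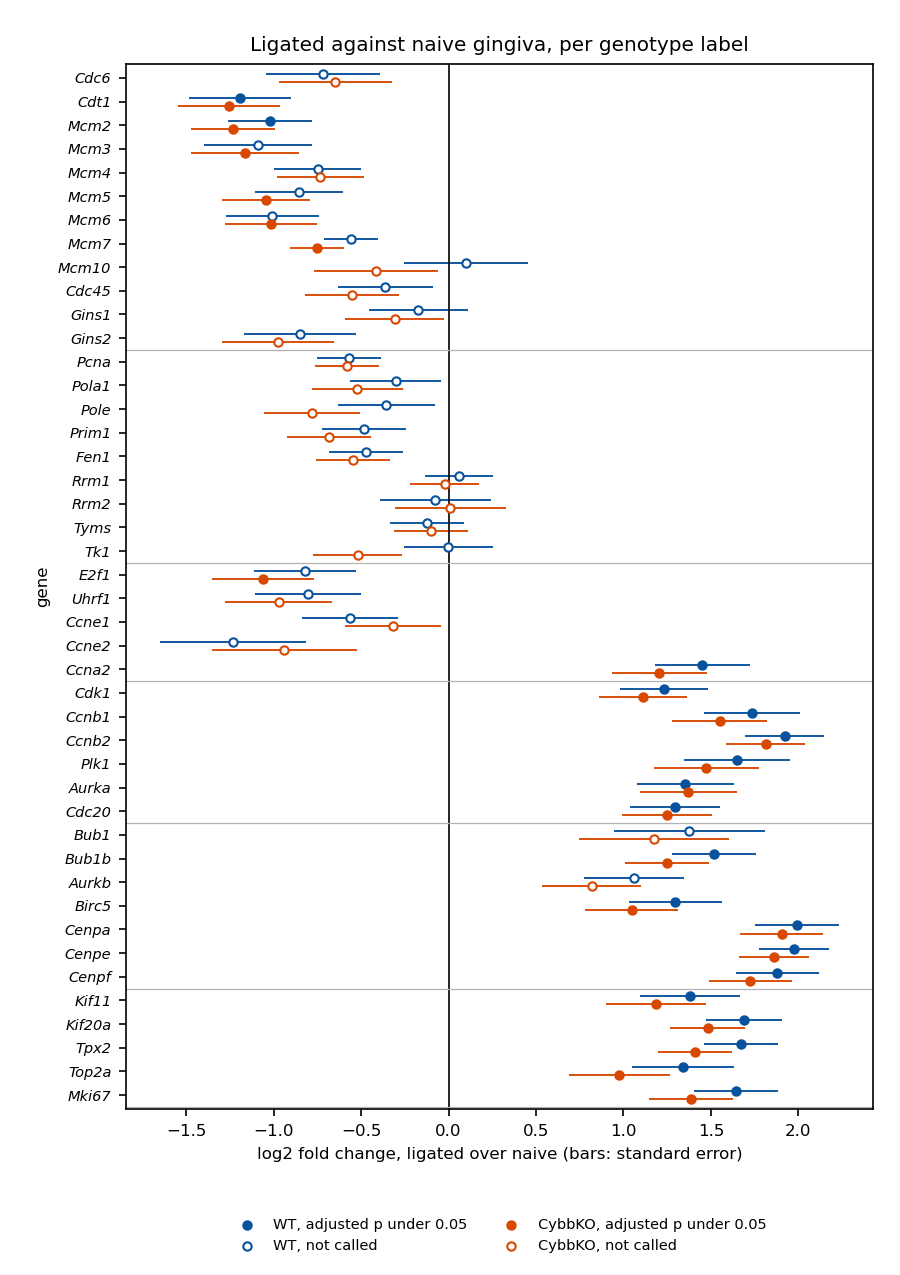
Change of each member in ligated against naive gingiva. Points are log2 fold changes from edgeR with their standard errors, blue for WT and orange for CybbKO, filled where the adjusted p over all tested genes was under 0.05, and grey lines separate the 6 roles. The mitotic members all lie at 0.82 or above and the licensing members, other than Mcm10 in WT, which was also below 0 without naive WT replicate 3, below 0.

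Of the members called, 6 in WT were called under each of the 21 settings tried, namely Ccnb2, Cenpa, Cenpe, Cenpf, Kif20a and Tpx2. In CybbKO 14 were, among them those 6, Ccnb1, Plk1, Aurka, Cdc20, Bub1b, Mki67 and, on the lower side, Mcm2 and Mcm7. The count of members that rose in WT fell from 17 to 6 without naive WT replicate 2, 10 without ligated WT replicate 3 and 11 without ligated WT replicate 1 or naive WT replicate 1. No called member changed direction under any setting. Some fold changes near 0 did, in WT those of Mcm10, Gins1, Pole, Rrm1, Rrm2, Tyms and Tk1 and in CybbKO those of Rrm1, Rrm2 and Tyms. Mcm10 in WT was at 0.10, and at -0.24 without naive WT replicate 3.

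Per kilobase of exon, which allows genes to be compared, the order of the members changed with the ligature. In naive WT the highest mean levels were 30.1 CPM per kilobase for Pcna, 14.9 for Mcm6 and 14.5 for Mcm4. In ligated WT they were 21.5 for Cdc20, 20.3 for Pcna and 18.5 for Ccnb2, and Mcm6 stood at rank 15. In CybbKO the same 3 genes, Pcna, Mcm6 and Mcm4, led in naive tissue, and Pcna, Cdc20 and Ccnb2 in ligated tissue.

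The members were also summed within each library. The 18 mitotic members summed to 309, 263 and 250.1 CPM in naive WT and to 208, 261 and 399 in naive CybbKO. In ligated tissue they summed to 875, 658 and 880.0 CPM in WT and to 798, 596 and 768 in CybbKO. The 26 replication members summed to 799, 693 and 415 CPM in naive WT and 452, 478 and 523 in ligated WT, and to 723, 652 and 931 in naive CybbKO and 555, 464 and 580.4 in ligated CybbKO. The first sum thus separated all ligated from all naive libraries, and the second did so in CybbKO only, naive WT replicate 3 being the lowest of all 12.

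The ratio of the 2 sums does not depend on how libraries are scaled. Mitotic transcripts amounted to 0.386, 0.380 and 0.603 times the replication transcripts in naive WT and 0.288, 0.400 and 0.428 times in naive CybbKO. In ligated tissue the ratio was 1.94, 1.38 and 1.68 in WT and 1.44, 1.28 and 1.32 in CybbKO. Its mean was 0.456 ± 0.127 (SD, n = 3) in naive WT, 1.66 ± 0.280 in ligated WT, 0.372 ± 0.0740 in naive CybbKO and 1.35 ± 0.0800 in ligated CybbKO. Without replicate 3 the mean in naive WT was 0.383 (n = 2). All 6 ligated libraries lay above 1 and all 6 naive ones below it. In bulk tissue, fewer cells of a type and less of a transcript per cell cannot be told apart.

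**Figure D3:**
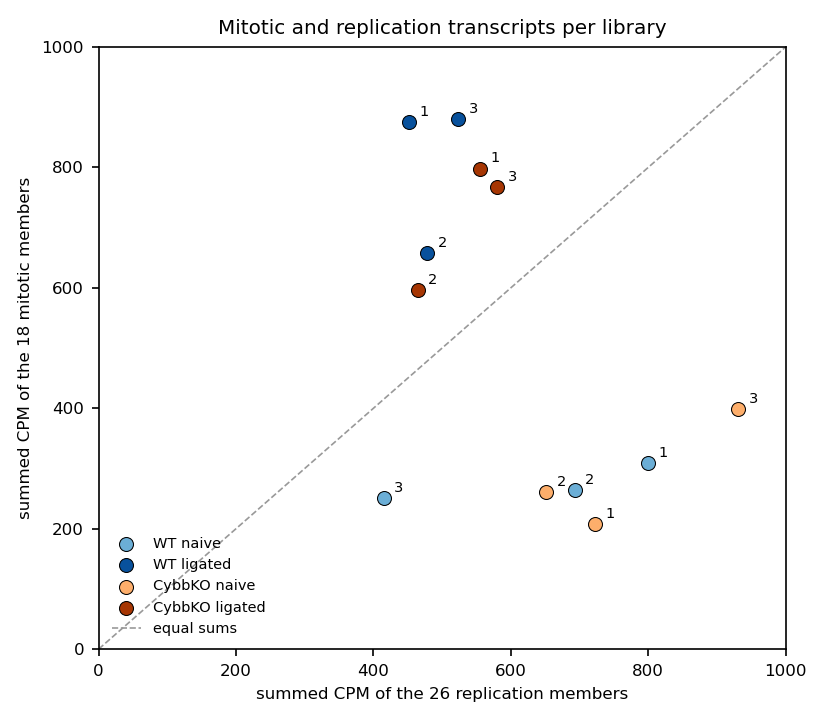
Summed CPM of the 18 mitotic members against that of the 26 replication members. Each point is a library, coloured by group and numbered by replicate, and the dashed line marks equal sums. The 6 ligated libraries lie above the line and the 6 naive libraries below it, with naive WT replicate 3 at the low end of the replication sum.

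Marker genes of other cells moved with the ligature as well, and their part in the changes above was not tested. Summed levels of 8 fibroblast markers were 1420.4 to 2981 CPM in naive and 3946 to 10536 in ligated libraries, of 7 endothelial markers 124 to 161 and 226 to 356, of 10 neutrophil markers 382 to 935 and 1352 to 11675, and of 10 monocyte and macrophage markers 121 to 164 and 199 to 465. In the same order, edgeR called 3 of 8, 3 of 7, 1 of 10 and 2 of 10 higher in WT. In CybbKO it called 7 of 8, 6 of 7, 10 of 10 and 10 of 10 higher. DESeq2 called 5 of the fibroblast and 7 of the endothelial markers higher in WT, beside 5.64% of its genes. In CybbKO it called 7 and 6 of them higher, beside 12%. The 10 markers of immature neutrophils summed to 97.7 to 189.9 CPM in naive and 174 to 593 in ligated libraries, and 4 of the 10, Prtn3, Ms4a3, Fcnb and Cebpe, had at most 10 counts in any library. Of the 3 of these markers that were tested, 0 were called in WT and 1 was higher in CybbKO by edgeR, 2 were higher in each by DESeq2, and all 3 were higher in each at an unadjusted p under 0.05, beside 11.3% and 17.3% of all tested genes. The 8 basal epithelial markers, which include the keratins of the dividing layer, summed to 11486 to 21476 and 10815 to 15552 CPM, with 0 called in WT and 2 called lower in CybbKO. The 11 markers of upper epithelial layers summed to 81574 to 112666 and 55517 to 99833 CPM, with 1 and 2 called lower.

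Other genes of the same pathways were taken from lists drawn up by function with earlier results of these data known. Of 20 further genes of licensing and origin firing, 0 were called in WT and 2 were lower in CybbKO, Cdc7, the kinase that fires origins, and Timeless, a fork protein. Cdc7 was at -0.64 (SE 0.23, adjusted p = 0.155) in WT and -0.85 (SE 0.23, adjusted p = 0.0340) in CybbKO. Orc1, the largest origin recognition subunit, had 5.30, 3.76 and 1.68 CPM in naive WT and 1.05, 1.62 and 1.5 in ligated WT, and did not pass in either genotype, at -1.37 (SE 0.37, adjusted p = 0.0703) in WT and -1.10 (SE 0.37, adjusted p = 0.0732) in CybbKO. Gmnn, the inhibitor of Cdt1, ran from 9.26 to 19.3 CPM in naive and 10.4 to 17.9 in ligated libraries. Of 27 further genes of DNA synthesis, 2 were lower in WT and 7 in CybbKO, and none was higher. Those in WT were Chaf1b, a histone chaperone of new DNA, at -1.10 (SE 0.25, adjusted p = 0.0381), and Rpa2, a subunit that coats single strands, at -0.76 (SE 0.18, adjusted p = 0.0424). In CybbKO, Chaf1b was at -1.04 (SE 0.24, adjusted p = 0.0171), Pold1, the catalytic subunit of polymerase delta, at -1.16 (SE 0.24, adjusted p = 0.00923), and Lig1, the ligase of the new strand, at -0.88 (SE 0.20, adjusted p = 0.0142). Over these 47 further replication genes the median log2 fold change was -0.25 in WT and -0.33 in CybbKO.

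Of 39 further genes of the kinetochore, spindle and cytokinesis, 21 rose in WT and 21 in CybbKO, and none fell. Among those with the smallest p were Kif2c, a motor that shortens spindle fibres, at 1.69 (SE 0.21, adjusted p = 0.00491) in WT and 1.63 (SE 0.21, adjusted p = 0.00207) in CybbKO, Kif14, a motor of cytokinesis, at 1.80 (SE 0.23, adjusted p = 0.00502) and 1.43 (SE 0.23, adjusted p = 0.00342), and Aspm, a spindle pole protein, at 1.89 (SE 0.25, adjusted p = 0.00523) and 1.61 (SE 0.25, adjusted p = 0.00279). Hmmr, which binds hyaluronan and spindle microtubules, had 8.68, 9.24 and 7.62 CPM in naive WT, 33.1, 25.7 and 29.2 in ligated WT, 5.08, 6.44 and 9.49 in naive CybbKO and 28.1, 16 and 27.2 in ligated CybbKO libraries. Over 22 further mitotic kinases and APC/C genes the median log2 fold change was 0.30 in WT and 0.14 in CybbKO. Below 0 were 5 in WT and 8 in CybbKO. Of the 22, 6 rose in WT and 8 in CybbKO. They include Nek2 at 1.58 (SE 0.24, adjusted p = 0.00926) and 1.35 (SE 0.23, adjusted p = 0.00461), Ube2c, the ubiquitin carrier of the APC/C, at 1.91 (SE 0.31, adjusted p = 0.0128) and 1.65 (SE 0.30, adjusted p = 0.00574), and Cdc25c, the phosphatase that activates Cdk1, at 1.90 (SE 0.31, adjusted p = 0.0128) and 1.83 (SE 0.31, adjusted p = 0.00398). The single gene of that list that edgeR called lower was Wee1, the kinase that holds Cdk1 inactive, named here after its values were seen. DESeq2 called 1 of the list lower in WT and 2 in CybbKO, beside 3.29% and 5.83% of its genes. Wee1 had 64.9, 41.1 and 28.2 CPM in naive WT, 16.2, 14.3 and 23.4 in ligated WT, 33.0, 48.3 and 41.6 in naive CybbKO and 17.1, 18.6 and 17.4 in ligated CybbKO libraries, with log2 fold changes of -1.32 (SE 0.28, adjusted p = 0.0295) in WT and -1.21 (SE 0.28, adjusted p = 0.0154) in CybbKO.

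Of the cyclins of G1, D1 and D2 fell in both genotypes. Ccnd1, cyclin D1, which couples growth signals to the cell cycle, had 252, 265 and 223 CPM in naive WT, 80.9, 112 and 76.8 in ligated WT, 246, 238 and 242 in naive CybbKO and 77.3, 77.4 and 68.4 in ligated CybbKO libraries. No ligated library exceeded 112 CPM and no naive library was below 223 CPM. Its log2 fold change was -1.45 (SE 0.14, adjusted p = 0.00243) in WT and -1.70 (SE 0.15, adjusted p = 0.000670) in CybbKO. Ccnd2, cyclin D2, had 341, 278 and 217 CPM in naive WT, 83.7, 121 and 117 in ligated WT, 231, 292 and 277 in naive CybbKO and 91.7, 127 and 90.5 in ligated CybbKO libraries, and fell with log2 fold changes of -1.38 (SE 0.21, adjusted p = 0.00926) and -1.37 (SE 0.21, adjusted p = 0.00273). Cdk4, their kinase, fell in CybbKO with a smaller change of -0.45 (SE 0.13, adjusted p = 0.0433). The other 4 genes of the 7 in this list passed in neither genotype.

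No CDK inhibitor was called higher. Of 7 CDK inhibitors, 0 were called in WT by edgeR or DESeq2. There 2 were higher at an unadjusted p under 0.05, beside 11.3% of all tested genes. In CybbKO edgeR called 1 lower, Cdkn2b (p15), at -0.64 (SE 0.14, adjusted p = 0.0118), beside 3.04% of all tested genes. DESeq2 called 3 lower in CybbKO, beside 5.83% of its genes. At an unadjusted p under 0.05, 3 were lower and 1 was higher there, beside 10.4% and 17.3% of all tested genes. Cdkn1a (p21), the p53 target that halts the cycle, had 248, 287 and 292 CPM in naive WT, 227, 223 and 245 in ligated WT, 314, 241 and 278 in naive CybbKO and 227, 255 and 202 in ligated CybbKO libraries, with log2 fold changes of -0.25 (SE 0.13, adjusted p = 0.310) and -0.28 (SE 0.13, adjusted p = 0.185). Cdkn2a (p16 and p19Arf) was nearly silent, at 0.0832 to 0.671 CPM in naive and 0 to 0.124 in ligated libraries, and its adjusted p in CybbKO was 0.0544 from edgeR and 0.0375 from DESeq2. Of 12 p53 target genes 11 were tested. In WT edgeR and DESeq2 called 0. At an unadjusted p under 0.05 stood 4, beside 19.9% of all tested genes in either direction. In CybbKO edgeR called 1 higher, Eda2r, a death domain receptor, at 1.03 (SE 0.31, adjusted p = 0.0472), beside 9.95% of all tested genes. There DESeq2 called 1 higher and 1 lower, beside 12% and 5.83% of its genes.

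Of 18 genes of the Rb and E2F family and their MuvB partners, 1 was called in each genotype. This was Foxm1, the forkhead factor of the mitotic programme, with 8.10, 8.29 and 8.46 CPM in naive WT, 20.5, 15.2 and 17.5 in ligated WT, 6.87, 6.74 and 12.4 in naive CybbKO and 17.9, 18.2 and 16.3 in ligated CybbKO libraries. It rose by 1.10 (SE 0.22, adjusted p = 0.0276) in WT and 1.01 (SE 0.22, adjusted p = 0.0129) in CybbKO on the log2 scale. Mybl2, the gene of B-Myb, which works with Foxm1 at these promoters and is itself an E2F target, had 4.54, 3.04 and 2.92 CPM in naive WT, 2.41, 2.98 and 2.52 in ligated WT, 4.21, 3.69 and 5.55 in naive CybbKO and 3.71, 3.08 and 3.40 in ligated CybbKO libraries, and did not pass the test, at -0.41 (SE 0.24, adjusted p = 0.377) and -0.40 (SE 0.24, adjusted p = 0.307). Foxm1 thus stood with the mitotic members, and Mybl2 did not.

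Between genotypes the members were not called apart. In naive tissue, CybbKO against WT called 1 of 15046 genes (0.00665%), Cybb, and 0 of the 44 members by edgeR or DESeq2. At an unadjusted p under 0.05 stood 1 member, beside 2.03% of all tested genes. That member was Tk1, at 0.69 on the log2 scale (standard error 0.26, unadjusted p = 0.0194 from edgeR). In ligated tissue 1 gene (0.00665%), again Cybb, and 0 members were called by edgeR, with 0 members and 3.34% of all tested genes at an unadjusted p under 0.05. The largest difference among the members by p was that of Cenpf, at -0.43 (standard error 0.23, unadjusted p = 0.0863 from edgeR). Standard errors of the members ran from 0.15 to 0.43 in naive and from 0.15 to 0.42 in ligated tissue on the log2 scale. Mki67 differed by -0.20 (standard error 0.23) in ligated tissue and Mcm6 by 0.23 (standard error 0.26) in naive tissue, so that a difference of either sign was possible at this number of libraries.

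The signs of these small differences were uneven. In naive tissue all 26 replication members had a higher mean in CybbKO, with a median log2 fold change of 0.25, and 10 of 18 mitotic members did, with a median of 0.05. Without naive WT replicate 3 the 26 split into 18 above and 8 below, with a median of 0.07. Without naive CybbKO replicate 3, 22 were above, with a median of 0.14, and without naive WT replicate 1 all 26 were, with a median of 0.54. Without naive CybbKO replicate 3 all 18 mitotic members were lower in CybbKO, with a median of -0.24, whereas without naive CybbKO replicate 1 or 2 14 of the 18 were higher, with medians of 0.22 and 0.18. In ligated tissue 24 of the 26 replication members were higher and 16 of the 18 mitotic members lower in CybbKO, with medians of 0.21 and -0.13. The mitotic median was -0.03, with 12 of 18 lower, without ligated CybbKO replicate 2, and -0.06 without ligated WT replicate 1. It was -0.26 without ligated WT replicate 2 and -0.21 without ligated CybbKO replicate 1. The replication median was 0.10 without ligated WT replicate 1 and 0.14, with 20 of 26 higher, without ligated CybbKO replicate 3. None of these members passed the test, and members of 1 library are not independent of each other.

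The difference between the ligature responses of the genotypes was tested as an interaction. By edgeR it called 0 of 15046 genes (0%) and 0 members, and DESeq2 also called 0. At an unadjusted p under 0.05 stood 0 members, beside 2.27% of all tested genes. The smallest unadjusted p among the members was that of Tk1 (0.178, from edgeR), with a difference of -0.52 on the log2 scale (standard error 0.36). Of the 18 mitotic members 17 had a smaller rise in CybbKO, with a median difference of -0.19. That direction rested on naive CybbKO replicate 3. Without it 2 of the 18 had a smaller rise, and the median was 0.15. With each of the other 11 libraries left out in turn, 15 to 18 had a smaller rise, with medians from -0.37 without naive CybbKO replicate 1 to -0.08 without ligated CybbKO replicate 2. Of the 26 replication members 20 had a difference below 0, with a median of -0.13. Without naive WT replicate 3, 20 were above 0, with a median of 0.06. Without naive CybbKO replicate 3, 18 were above 0, with a median of 0.10.

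**Figure D4:**
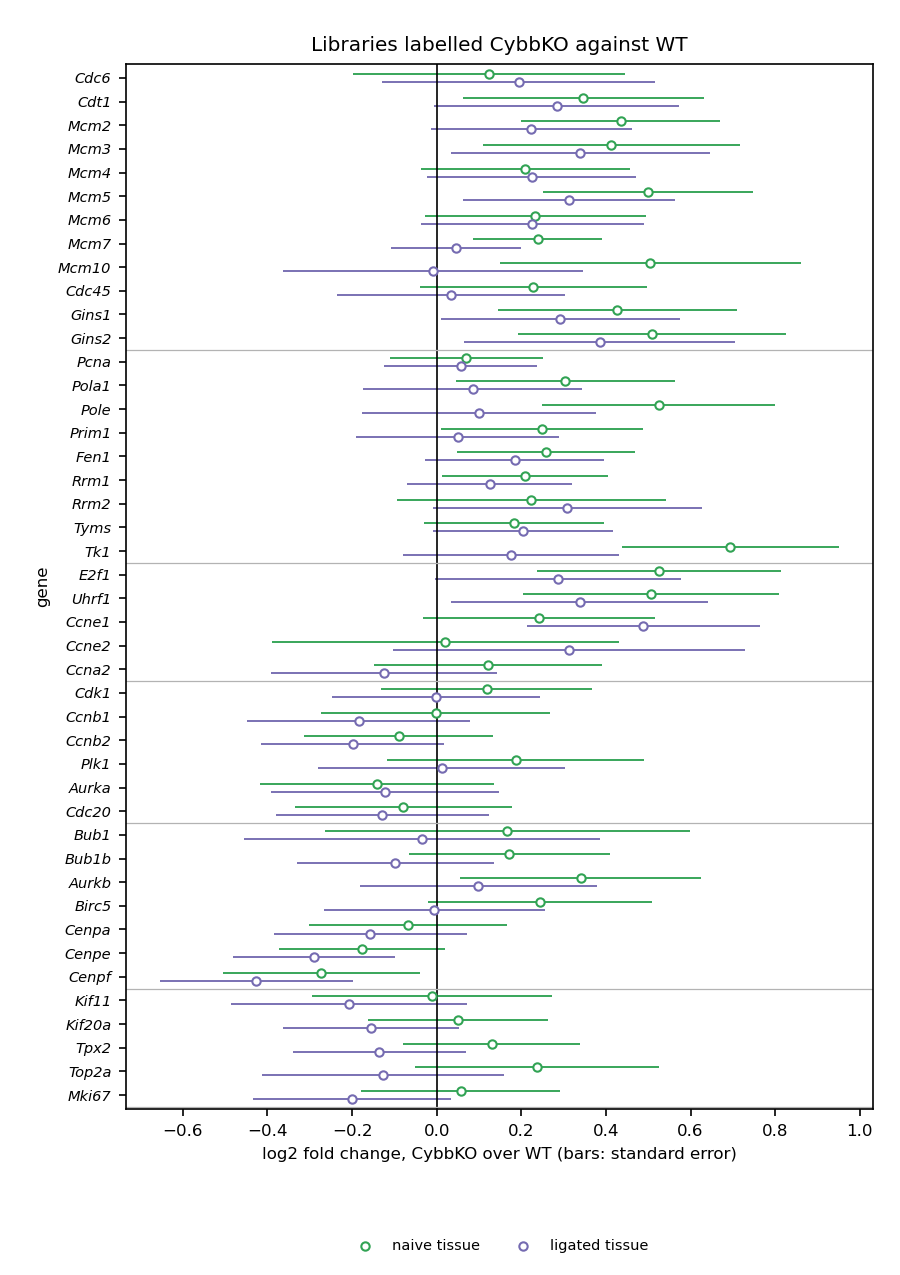
Difference of each member between libraries labelled CybbKO and WT, in naive (green) and ligated (violet) gingiva. Points are log2 fold changes from edgeR with their standard errors, and open points mark that none had an adjusted p under 0.05. Replication members lie mostly right of 0 and most mitotic members in ligated tissue lie left of it. Tk1 in naive tissue lies farthest from 0, at 0.69.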

How the data were processed

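Polyadenylated RNA of mouse gingiva was sequenced in 12 libraries, 3 in each of 4 groups given by the labels. What the authors deposited is a table of raw counts of reads on each Ensembl gene, not normalized. According to the methods, stranded libraries were aligned with STAR to GRCm38 (Ensembl release 93) and counted by strand with featureCounts, whereas the submitters' processing notes list HTSeq 0.10.0, which leaves the counting program open. Nothing was read from the paper's own comparisons.

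Symbols and positions came from GENCODE M21, which matched 21939 of 21965 genes. Counts were analysed with edgeR 4.0.16 under R 4.3.3, by quasi-likelihood over all 12 libraries together, with TMM scaling, filterByExpr and Benjamini-Hochberg adjustment over 15046 genes. DESeq2 1.42.0 was an alternative, as were 7 other settings and each library left out in turn. CPM are counts over TMM-scaled totals. Totals of 27958819 to 42613423 and the spread between libraries (biological coefficient of variation 0.24) both limit precision. Libraries with the same replicate number did not deviate together over the 6 pairs of groups (correlations of -0.228 to 0.277), so no pairing was assumed. P-values measure the spread between libraries of separate mice, as far as the design text states it.

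The members, the 8 pathway lists and the 14 marker lists were chosen with earlier results of these data known. Named are all members, Cybb, the called genes of each pathway list (the 3 with the smallest p where more than 5 were called) and Ccnd1, Cdkn1a, Cdkn2a, Cdkn2b, Foxm1, Mybl2, Orc1 and Gmnn. Not every gene that rule covers is printed. Wee1 was added after its values were seen. The steps were tested on simulated data. Promoter sequences are RefSeq's for GRCm38.p6, summed and scanned in Python 3.11.15.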

Additional observations from a re-analysis of the deposited data

How the results depend on the processing

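The rise of mitotic members was the steadier side, and the number of replication members called lower was the less steady one. Members called lower in WT, 2 as reported, were 9 by DESeq2, 1 with at least 10 counts in every library or with no filter on low counts, and 0 with scaling by library size only, with only the 6 libraries compared or with a replicate block. In CybbKO the 7 called lower were 13 by DESeq2, 11 with only the 6 libraries compared and 4 with a replicate block. With a replicate block 15 members rose in WT and 16 in CybbKO, and 271 genes were called in WT in all, but same-numbered libraries share only a number here. In none of the 6 pairs of groups did every same-numbered pair correlate above 0.1. DESeq2 called 1372 genes in WT against 481 as reported, 15 between ligated genotypes and 2 between naive ones, and the fit of only the 6 libraries compared called 0 between ligated genotypes. The causes were not tested.

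With each library left out in turn, members called in WT ran from 6 (without WT naive replicate 2) to 27 (without WT naive replicate 3), with 6 to 18 higher and 0 to 12 lower, and genes called in WT from 27 to 900. In CybbKO members called ran from 14 to 30, with 2 to 13 lower, and genes from 837 to 2949. Genes called between ligated genotypes ran from 0 to 2 and in the interaction from 0 to 1. Members called were 0 in both genotype contrasts and the interaction under each of these settings. Of 124 ligature fold changes, of all members and the printed pathway genes, 10 changed sign under some setting, and none of the 10 passed the test. With scaling by library size only, Rrm1 in CybbKO was at 0.059, Rrm2 in WT at 0.039 and Tk1 in WT at 0.11. Rrm2 in CybbKO was at -0.00349 with DESeq2 size factors and at -0.00503 by DESeq2. Tk1 in WT was at 0.000912 with no filter on low counts, 0.010 with at least 10 counts in every library and 0.000744 with only the 6 libraries compared. With single libraries left out, the fold changes ran for Mcm10 in WT from -0.24 to 0.33, Gins1 in WT from -0.38 to 0.11, Pole in WT from -0.64 to 0.013, Rrm1 in WT from -0.15 to 0.23 and Rrm1 in CybbKO from -0.11 to 0.10. They ran for Rrm2 in WT from -0.35 to 0.24, Rrm2 in CybbKO from -0.14 to 0.29, Tyms in WT from -0.29 to 0.063, Tyms in CybbKO from -0.20 to 0.11 and Tk1 in WT from -0.089 to 0.058. Over the 8 settings on all libraries, the 6 compared or the block, 926 of 992 gene values stayed on the same side of the threshold with the same sign, 25 passed it and 33 lost it. Over the libraries left out, 1274 of 1488 stayed, 30 passed and 163 lost it.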

Other observations

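The promoter motifs of the further replication and mitotic genes of the pathway lists were counted as well. Of 39 further replication genes with a promoter in RefSeq, 12 held the E2F motif (30.8%), 8 a CHR (20.5%) and 18 a CCAAT box (46.2%). Of 53 further mitotic genes, 4 held the E2F motif (7.55%), 37 a CHR (69.8%) and 36 a CCAAT box (67.9%). These genes were listed by function and were not chosen by their promoters.

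The other marker lists gave these values. Skeletal muscle markers summed to 725 to 3058 CPM in naive and 566 to 2842 in ligated libraries, with 1 of 9 called higher in CybbKO. Keratins of wounded and hair-type epithelium summed to 27020.2 to 43798 and 26469 to 37059 CPM, with 0 of 4 called by edgeR. Osteoclast markers summed to 60.4 to 115 and 141 to 477 CPM, with 1 called higher in WT and 4 in CybbKO, and osteoblast markers to 48.9 to 87.4 and 62.3 to 184 CPM, with 3 called higher in CybbKO. Markers of T and NK cells summed to 2.44 to 10.3 and 8.35 to 17.5 CPM, with 1 called higher in CybbKO, and those of B and plasma cells to 1.93 to 4.73 and 1.64 to 2.83 CPM, with 2 called lower in CybbKO. Salivary and mucous gland markers summed to 63.0 to 29183 and 1950.3 to 5053 CPM, with 0 of 5 tested called by edgeR and Prol1 at 0 counts in every library.

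The ratio of Mki67 to Mcm6 counts within a library, which needs no scaling, was 0.724, 0.731 and 1.41 in naive WT and 0.558, 0.822 and 0.862 in naive CybbKO. It was 6.51, 4.10 and 5.83 in ligated WT and 4.46, 3.22 and 4.23 in ligated CybbKO. This pair was picked after the values were seen.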
